A study of Mus musculus with 2 samples.

Results

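The core cardiac transcription factors are a set of 9 genes, Nkx2-5, Gata4, Gata5, Gata6, Hand1, Hand2, Mef2c, Hopx and Smarcd3, picked by symbol out of 52550 genes counted in single cells of the early mouse heart region. The method was Drop-seq, in which each cell shares a droplet with a barcoded bead and every captured mRNA is counted once by its unique molecular identifier (UMI). Both libraries came from microdissected posterior second heart field (SHF), the mesodermal progenitors behind the heart, and heart tube of wild-type (WT) CD1 embryos at E10.0. For each library the tissue of about 80 embryos was combined, so single embryos cannot be told apart, and the 2 biological replicates of this 1 group were processed on different days. No mutant or treated embryos were analysed here, and all comparisons are between kinds of cells within the same pools.

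Replicate 1 gave 3864 kept cells with 11166115 UMIs, and replicate 2 gave 4743 kept cells with 12825780 UMIs, with medians of 1376 and 1503 UMIs per cell. Of the barcodes, 82 occurred in both libraries, and 0 of these were kept in both. Cells were clustered without the 9 genes, and clusters were named "-like" from marker genes alone, which gave 15 classes. Pharyngeal mesoderm-like cells (8 and 18) were too few to be tested, and the other 14 classes entered the fit. Cardiomyocyte-like cells (225 in replicate 1 and 248 in replicate 2) had a summed level of 10 sarcomere and myosin markers of 29007 and 46351 counts per 1000000 UMIs (CPM), against 259 and 381 CPM in SHF progenitor-like cells (770 and 896 cells). The 8 SHF markers, among them Isl1, Osr1 and Aldh1a2, summed to 509.7 and 538 CPM in cardiomyocyte-like cells and to 932 and 981 CPM in SHF progenitor-like cells. A further 1133 and 1252 cells stayed unnamed.

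The 9 factors form a network that drives heart formation. Nkx2-5 is a homeodomain factor, Gata4, Gata5 and Gata6 are zinc finger factors that bind GATA motifs, Hand1 and Hand2 are basic helix-loop-helix factors that pattern the ventricles and the outflow region, and Mef2c is a MADS-box factor of muscle genes. Hopx is a small homeodomain protein that does not bind DNA and acts as a cofactor, and Smarcd3 (Baf60c) is the subunit through which the BAF chromatin remodelling complex is linked to cardiac factors such as Tbx5 and Gata4.

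RefSeq promoter windows on GRCm38.p6, running from 250 bases before to 50 bases after an annotated start, were found for 6 of the members. They were searched on both strands for the GATA motifs AGATAA and TGATAA, the NK2 motif CACTTNA, the MEF2 motif, the E-box CANNTG and the GLI motif GACCACCCA. Shown are Nkx2-5 and Hopx, the members with a second step up in the cells richest in sarcomere RNA, and Hand2 and Smarcd3, whose windows hold a GATA motif. Each reads 5′ to 3′ along the gene, and capitals mark GATA or NK2 matches.
Nkx2-5 (chr17:26841516-26841815, minus strand): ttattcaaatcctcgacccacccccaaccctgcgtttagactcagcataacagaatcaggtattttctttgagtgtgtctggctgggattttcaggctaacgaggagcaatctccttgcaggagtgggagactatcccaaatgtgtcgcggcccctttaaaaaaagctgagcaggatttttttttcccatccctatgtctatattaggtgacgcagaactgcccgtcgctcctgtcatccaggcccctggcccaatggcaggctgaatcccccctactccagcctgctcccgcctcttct
Hopx, upstream start (chr5:77115074-77115373, minus strand): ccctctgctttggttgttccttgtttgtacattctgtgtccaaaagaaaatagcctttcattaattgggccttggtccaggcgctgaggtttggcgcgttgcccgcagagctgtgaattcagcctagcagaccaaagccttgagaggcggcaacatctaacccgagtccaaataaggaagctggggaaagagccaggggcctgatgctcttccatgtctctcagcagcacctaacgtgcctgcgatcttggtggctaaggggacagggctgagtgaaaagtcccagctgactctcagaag
Hopx, downstream start (chr5:77095218-77095517, minus strand): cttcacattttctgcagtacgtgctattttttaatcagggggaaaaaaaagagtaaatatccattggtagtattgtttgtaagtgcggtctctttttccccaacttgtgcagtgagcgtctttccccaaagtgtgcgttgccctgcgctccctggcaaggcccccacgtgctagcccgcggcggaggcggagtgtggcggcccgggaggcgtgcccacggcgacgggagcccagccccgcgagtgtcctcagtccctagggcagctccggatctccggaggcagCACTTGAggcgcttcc
Hand2 (chr8:57320733-57321032, plus strand): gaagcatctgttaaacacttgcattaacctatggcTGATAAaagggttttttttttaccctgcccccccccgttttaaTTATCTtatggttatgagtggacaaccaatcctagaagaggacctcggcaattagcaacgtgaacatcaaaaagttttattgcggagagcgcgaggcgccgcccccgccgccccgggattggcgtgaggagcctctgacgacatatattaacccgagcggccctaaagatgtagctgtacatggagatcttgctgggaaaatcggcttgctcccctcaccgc
Smarcd3 (chr5:24601953-24602252, minus strand): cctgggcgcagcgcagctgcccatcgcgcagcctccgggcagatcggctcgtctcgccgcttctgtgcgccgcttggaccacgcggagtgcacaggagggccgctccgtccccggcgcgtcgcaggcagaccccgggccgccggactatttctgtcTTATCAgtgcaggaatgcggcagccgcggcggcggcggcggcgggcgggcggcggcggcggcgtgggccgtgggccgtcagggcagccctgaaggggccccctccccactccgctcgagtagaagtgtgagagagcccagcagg
The Hand2 window held TGATAA at position -215 from the start and TTATCT, the reverse complement of AGATAA, at -172. In Smarcd3 the reverse complement TTATCA stood at -94, and in the downstream Hopx window the NK2 match CACTTGA stood at 35, overlapping the E-box CACTTG. The Nkx2-5 window held none of these motifs except an E-box at -113. Over 32851 promoter windows of the same length, 11.2% held AGATAA, 9.05% TGATAA, 11.5% CACTTNA, 3.69% the MEF2 motif, 72.3% CANNTG and 0.253% GACCACCCA. A match is a run of letters in these windows and was not read as a binding site.

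On GRCm38 (mm10), Nkx2-5 (ENSMUSG00000015579.4 in the files) lies on the minus strand at chr17:26838664-26845009. Gata4 (ENSMUSG00000021944.15) lies at chr14:63198922-63271692 and Gata5 (ENSMUSG00000015627.5) at chr2:180325133-180334699, both on the minus strand, while Gata6 (ENSMUSG00000005836.8) lies on the plus strand at chr18:11052064-11085635. Hand1 (ENSMUSG00000037335.13) lies on the minus strand at chr11:57828705-57832818 and Hand2 (ENSMUSG00000038193.4) on the plus strand at chr8:57320983-57324633. Mef2c (ENSMUSG00000005583.16) lies on the plus strand at chr13:83504034-83667080. Hopx (ENSMUSG00000059325.14) at chr5:77086988-77115121 and Smarcd3 (ENSMUSG00000028949.13) at chr5:24590818-24624411 share a chromosome and the minus strand. Of the loci, 5 overlap a gene on the other strand, namely Gata5 with Gata5os, Gata6 with 1010001N08Rik, Hand2 with Hand2os1, Hopx with Hopxos, and Smarcd3 with Chpf2 and Mir671. Whether the counting used the strand is not given in the sources used here, so reads of these partners cannot be told apart.

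The first comparison asked which of the factors are carried at a higher level by cardiomyocytes of the heart tube than by progenitors of the SHF. All 9 were higher in cardiomyocyte-like cells, by 2.37-fold (Gata5) to 13.0-fold (Nkx2-5), with edgeR's quasi-likelihood test on UMIs summed per library and class and adjusted p under 0.05. Of the 5510 genes tested in this fit, 14.8% were higher in cardiomyocyte-like cells and 27.3% differed in either direction. The median log2 fold change was 1.79 over the 9 members and -0.03 over all genes tested.

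Nkx2-5 had 263 and 471 CPM in cardiomyocyte-like cells (replicates 1 and 2), against 18.4 and 43.1 CPM in SHF progenitor-like cells. The lowest cardiomyocyte-like value lay well above the highest progenitor value, and the log2 fold change was 3.70 ± 0.17 (SE, adjusted p = 5.00e-24). Hopx had 144 and 130.1 CPM in cardiomyocyte-like cells and 14.4 and 27.1 CPM in SHF progenitor-like cells, a log2 fold change of 2.91 ± 0.29 (adjusted p = 9.43e-12). Mef2c stood at 338 and 366 CPM in cardiomyocyte-like cells, against 57.5 and 69.3 CPM in progenitors. For this MADS-box factor the log2 fold change was 2.57 ± 0.15 (adjusted p = 1.13e-20). Smarcd3 reached 85.4 and 101 CPM in cardiomyocyte-like cells and 22.0 and 23.7 CPM in SHF progenitor-like cells, with a log2 fold change of 2.11 ± 0.28 (adjusted p = 2.30e-08). Each of these 4 genes kept its call under every alternative in which it was tested. Statements here and below that libraries of groups overlap or lie apart describe 2 values per group. How many of all genes lie apart in the same way was not counted.

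The GATA and HAND factors had smaller fold changes, between 1.24 and 1.79 on the log2 scale. Gata4 had 191 and 149 CPM in cardiomyocyte-like cells and 46.7 and 56.7 CPM in SHF progenitor-like cells, a log2 fold change of 1.79 ± 0.25 (adjusted p = 7.99e-08). Hand2 had 95.7 and 76.6 CPM in cardiomyocyte-like cells, against 26.0 and 28.1 CPM in progenitors (1.75 ± 0.32, adjusted p = 1.82e-05). For Hand2 the call was lost when cells were thinned to 1000 UMIs (1.15, adjusted p = 0.0550). Gata6 stood at 304 and 161 CPM in cardiomyocyte-like cells and at 116 and 82.4 CPM in SHF progenitor-like cells, with a log2 fold change of 1.29 ± 0.16 (adjusted p = 5.23e-09). Replicate 1 was higher than replicate 2 in both classes, and the call was lost without the library block (1.30, adjusted p = 0.0698). Gata5 had 80.2 and 75.3 CPM in cardiomyocyte-like cells, against 26.9 and 43.6 CPM in progenitors. Its log2 fold change was 1.24 ± 0.31 (adjusted p = 0.00148), and the call was lost in 6 alternatives, with DESeq2 (1.29, adjusted p = 0.156), without the library block (1.23, adjusted p = 0.0869) and with each of 4 other clusterings (0.49 to 0.70, adjusted p = 0.0797 to 0.385).

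Hand1 had few UMIs in both classes. It stood at 9.06 and 35.7 CPM in cardiomyocyte-like cells and 6.74 and 11.6 CPM in SHF progenitor-like cells, so the ranges of the 2 libraries overlapped. The log2 fold change was 1.31 ± 0.45 (adjusted p = 0.0251), and it was 1.75 without replicate 1 and 0.46 without replicate 2. The call was lost in 7 alternatives, among them DESeq2 (1.18, adjusted p = 0.294) and the fit with no library block (1.39, adjusted p = 0.336).

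**Figure D1:**
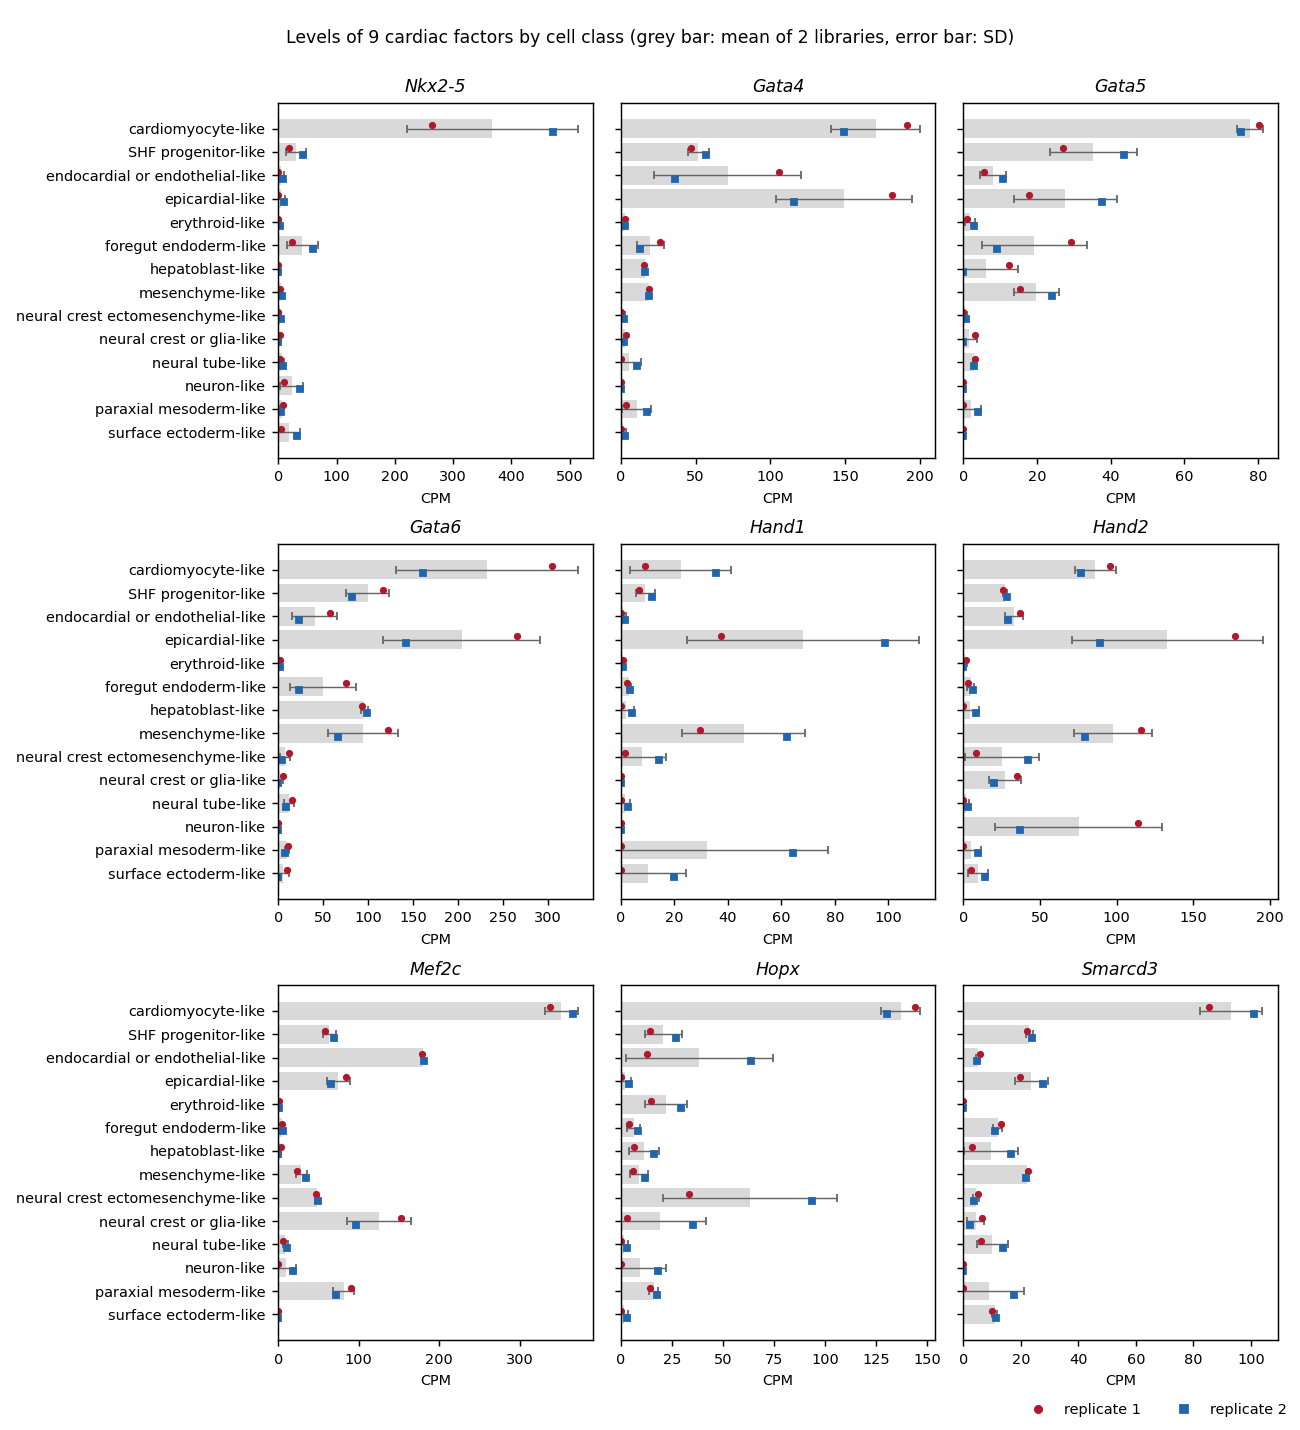
CPM of the 9 cardiac factors in 14 cell classes (rows, cardiomyocyte-like at the top), with points for replicates 1 and 2, grey bars for the mean and error bars for the SD of 2 libraries. Nkx2-5, at 263 and 471 CPM, was far above every other class in cardiomyocyte-like cells, while Hand1 and Hand2 had their highest mean in epicardial-like cells.

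Single cells showed the same order of the 2 classes. After each cell was thinned to 1000 UMIs, Nkx2-5 was detected in 20.9% and 33.2% of cardiomyocyte-like cells and in 1.74% and 5.02% of SHF progenitor-like cells in replicates 1 and 2. In erythroid-like cells the thinned share was 0 of 149 and 0 of 144 cells, which allows up to 2.01% and 2.08%. The 7 erythroid markers summed to 340124 and 398161 CPM in this class, and Hopx was called higher there than in SHF progenitor-like cells. Its shares are therefore a comparison with another class and do not measure free RNA. The barcodes with few UMIs that were taken as free RNA held 0 and 1 UMIs of Nkx2-5 in replicates 1 and 2. Without thinning the shares were 28.4% and 42.3% in cardiomyocyte-like cells, 3.38% and 6.58% in SHF progenitor-like cells, and 0 and 1.38% in erythroid-like cells, at median depths of 1506 and 1684, 1682 and 1449.5, and 3475 and 6164 UMIs. Mef2c was detected in 32.5% and 28.9% of thinned cardiomyocyte-like cells, against 5.57% and 5.96% of progenitors and 0.671% and 0 of erythroid-like cells (unthinned 46.2% and 44.8%, 9.09% and 9.71%, and 0.629% and 0.690%). Hand1 was found in 0.613% and 3.68% of thinned cardiomyocyte-like cells and 0.522% and 1.25% of progenitors, which at this depth did not separate the classes.

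A thinned cardiomyocyte-like cell carried UMIs of 1.23 and 1.26 of the 9 factors on average, against 0.310 and 0.337 in SHF progenitor-like cells. At least 2 of the factors were seen in 36.8% of 163 and 35.8% of 190 cardiomyocyte-like cells, in 5.39% of 575 and 6.27% of 638 SHF progenitor-like cells and in 0 of 149 and 0.694% of 144 erythroid-like cells. The most seen in 1 cell was 5, in a cardiomyocyte-like cell of replicate 2. Cells with none of the 9 made up 31.9% and 27.9% of cardiomyocyte-like cells at this depth, and a cell without a UMI is not shown to lack the RNA.

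In the other 12 classes the members were tested against SHF progenitor-like cells. Of 108 pairs of a member and a class, 12 were higher, 60 were lower and 36 were not called. Over all genes tested in the same fit, 6.86% of such pairs were higher and 6.66% lower. The higher pairs were of Hand1 and Hopx (3 classes each), Hand2 and Mef2c (2 each) and Gata4 and Gata6 (1 each). Nkx2-5, Gata5, Mef2c, Hopx and Smarcd3 had their highest level in cardiomyocyte-like cells, where both libraries lay above those of the next class in order. Without the library block and with DESeq2, 5 of the 108 pairs were called higher, and 4 with cells thinned to 1000 UMIs. Of the 12 higher pairs, Hand2 in epicardial-like and Mef2c in endocardial or endothelial-like cells kept the call in every alternative in which they were tested, and the others lost it in at least 1.

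Epicardial-like cells were higher in 4 members (7.97% of all genes tested were higher in this class). Its clusters 5 (59 and 66 cells) and 6 (39 and 72 cells) each raised 3 of 6 epicardial markers. Both were split from a cluster of the first round that raised the mesenchyme markers Prrx1, Alx1 and Alx4. Cluster 28 (35 and 37 cells) raised 5 of 6 and was split from the cardiomyocyte-like cluster of that round. How far the class belongs to the heart was not tested. In the class as a whole Hand1, at 37.3 and 98.7 CPM, had a log2 fold change over SHF progenitor-like cells of 2.84 ± 0.40 (adjusted p = 3.09e-07). Hand2 had 177 and 88.8 CPM there (2.28 ± 0.32, adjusted p = 2.30e-07), Gata4 181 and 116 CPM (1.51 ± 0.27, adjusted p = 2.93e-05) and Gata6 265 and 142 CPM (1.02 ± 0.18, adjusted p = 2.43e-05). The call was lost for Hand1 at resolution 0.6 (0.59, adjusted p = 0.759), for Gata4 with DESeq2 (1.56, adjusted p = 0.0890) and thinned cells (1.18, adjusted p = 0.0706), and for Gata6 without the block (1.04, adjusted p = 0.294) and at resolution 0.6 (0.48, adjusted p = 0.264). Hand2 had 1.69 without replicate 1 and 2.74 without replicate 2. The 10 cardiomyocyte markers summed to 2192 and 2586 CPM in epicardial-like cells, against 259 and 381 CPM in SHF progenitor-like cells, and their part in the higher levels was not tested. For Gata4 and Gata6 the 2 libraries of epicardial-like cells overlapped those of cardiomyocyte-like cells. Lower there, as were 5.12% of all genes, was Nkx2-5, at 0 and 9.87 CPM, with a log2 fold change of -2.58 ± 0.55 (adjusted p = 5.02e-04), and so was Hopx, at 0 and 3.95 CPM (-3.28 ± 0.82, adjusted p = 0.00330). Both were lost without the block (adjusted p = 0.153 and 0.152) and with doublets kept (-0.99 and -2.22, adjusted p = 0.161 and 0.153), and Hopx in 3 other alternatives. Without replicate 1 and without replicate 2, where replicate 1 has no UMI of either gene in this class, the values were -2.07 and -6.60 for Nkx2-5 and -2.69 and -6.24 for Hopx.

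Mesenchyme-like cells were also higher in both HAND factors, with Hand1 at 29.5 and 62.2 CPM (2.30 ± 0.39, adjusted p = 3.84e-05) and Hand2 at 116 and 79.6 CPM (1.86 ± 0.31, adjusted p = 2.44e-05), while Gata4 fell to 18.9 and 18.5 CPM in this class (-1.44 ± 0.35, adjusted p = 0.00683). In this class no call of these 3 genes held without the block (adjusted p = 0.0699 to 0.286) or with DESeq2 (adjusted p = 0.0748 to 0.535), and Gata4 was at 0.00 at resolution 0.6.

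Mef2c and Hopx each had further classes above the progenitors. Mef2c had 179 and 181 CPM in endocardial or endothelial-like cells, a log2 fold change of 1.59 ± 0.17 (adjusted p = 9.39e-11), and 153 and 96.5 CPM in neural crest or glia-like cells (1.04 ± 0.19, adjusted p = 5.65e-05). The 6 macrophage markers summed to 544 and 24.3 CPM in endocardial or endothelial-like cells and to 0 in SHF progenitor-like cells, and their part in the levels of Mef2c and Hopx in this class was not tested. The call in neural crest or glia-like cells was lost at resolution 0.6 (0.51, adjusted p = 0.211), with another random share of clustering genes (0.48, adjusted p = 0.101) and with thinned cells (1.08, adjusted p = 0.0640). In order of mean level, cardiomyocyte-like, endocardial or endothelial-like and neural crest or glia-like cells did not overlap with one another. Hopx was higher in neural crest ectomesenchyme-like cells (33.2 and 93.4 CPM, 1.66 ± 0.31, adjusted p = 1.35e-04), in erythroid-like cells (14.9 and 29.4 CPM, 1.12 ± 0.37, adjusted p = 0.0107) and, just past the threshold, in endocardial or endothelial-like cells (13.0 and 63.8 CPM, 0.96 ± 0.37, adjusted p = 0.0499). No call of Hopx held without the block (adjusted p = 0.172 to 0.367) or with DESeq2 (adjusted p = 0.0993 to 0.373). In erythroid-like cells the value was -0.33 when libraries were scaled by total UMIs alone, and in endocardial or endothelial-like cells it was -0.48 with at least 800 genes per cell and -0.08 without replicate 2. Of these 3 classes, only ectomesenchyme had both libraries above both of the progenitors. Hand1 was also called higher in paraxial mesoderm-like cells, where all of its UMIs were in replicate 2 (0 and 64.2 CPM, 1.84 ± 0.47, adjusted p = 0.00947), and this call was lost without the block, with DESeq2 and with another random share of clustering genes (1.20 to 2.03, adjusted p = 0.153 to 0.492). Nkx2-5 stood at 22.8 and 60.0 CPM in foregut endoderm-like cells, second in the order and not called against the progenitors (0.44, adjusted p = 0.236), and called lower with at least 800 genes per cell (-1.01, adjusted p = 0.0363).

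In some classes a member had 0 UMIs in both libraries, and the fold is then a lower bound against a floor of 3 counts in each library. Nkx2-5 was at least 34.0-fold higher in cardiomyocyte-like than in hepatoblast-like cells, Smarcd3 at least 33.6-fold higher than in erythroid-like cells and Mef2c at least 29.6-fold higher than in surface ectoderm-like cells. Neuron-like cells, with 47 and 50 cells, had 0 UMIs of Gata4, Gata5, Gata6, Hand1 and Smarcd3. Against this class, which held few UMIs, cardiomyocyte-like cells were at least 6.08-fold higher for Gata4, 2.78-fold for Gata5, 8.30-fold for Gata6 and 3.32-fold for Smarcd3.

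The second comparison followed the factors along the amount of sarcomere RNA, measured as the share of a cell's UMIs from Actc1, Tnnt2, Myl7, Myl4, Tnnc1 and Tnni1. SHF progenitor-like and cardiomyocyte-like cells were divided into cells under 0.5% (840 in replicate 1 and 929 in replicate 2), from 0.5 to 2% (82 and 74) and at least 2% (73 and 141). Between low and middle share 8 members were higher in the middle, and between middle and high share Nkx2-5 and Hopx were higher again while Gata5 was lower. The share of all 7176 genes tested that were higher was 7.80% at the step from low to middle and 6.06% from middle to high, where 3.11% were lower. The median log2 fold change of the members was 1.76 at the first step and -0.04 at the second, and over all genes it was -0.00 at both.

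Nkx2-5 had 20.4 and 46.2 CPM at low, 166 and 152 CPM at middle and 496 and 616 CPM at high share. Its 3 levels did not overlap, with log2 fold changes of 2.35 ± 0.26 for middle over low (adjusted p = 1.41e-09) and 1.91 ± 0.21 for high over middle (adjusted p = 9.87e-10). The first step was 1.70 without replicate 1 and 3.03 without replicate 2. Hopx had 13.7 and 27.4 CPM at low, 35.9 and 89.3 CPM at middle and 341 and 154 CPM at high share. Here too every level lay above the one before, by 1.48 ± 0.46 (adjusted p = 0.0233) and 2.21 ± 0.37 (adjusted p = 1.68e-05). The second step of Hopx was 0.97 without replicate 1 and 3.42 without replicate 2, and its first step lost the call without the library block (1.51, adjusted p = 0.173), with DESeq2 (1.54, adjusted p = 0.0719) and in 5 other alternatives.

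Gata5 was highest at middle share, with 29.1 and 45.8 CPM at low, 134 and 121 CPM at middle and 37.9 and 53.9 CPM at high share. Low and high overlapped, and middle lay above both. Middle over low was 1.83 ± 0.27 (adjusted p = 1.61e-06) and high over middle was -1.34 ± 0.33 (adjusted p = 0.00414). The fall was not called without the library block (-1.26, adjusted p = 0.104), with DESeq2 (-1.33, adjusted p = 0.130), with at least 800 genes per cell (-1.28, adjusted p = 0.0819) or with another random share of clustering genes (-1.36, adjusted p = 0.0938). High over low was 0.49 ± 0.30 for Gata5 (adjusted p = 0.211), which made it the member without a call between the ends, where 20.1% of all genes were higher.

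Gata4 and Gata6 also stood highest at middle share, without a called fall. Gata4 had 59.5 and 60.9, 202 and 210.2, and 162 and 121 CPM at low, middle and high share. The first step was 1.76 ± 0.22 (adjusted p = 2.29e-08) and the second -0.39 ± 0.24 (adjusted p = 0.365). Gata6 had 132 and 86.8, 369 and 205, and 220.4 and 136 CPM, with replicate 1 above replicate 2 in each bin. Its steps were 1.39 ± 0.18 (adjusted p = 4.88e-08) and -0.52 ± 0.20 (adjusted p = 0.105), and the second passed the threshold when libraries were scaled by total UMIs alone (-0.63, adjusted p = 0.0322) and with limits of 1% and 4% (-0.76, adjusted p = 0.0304).

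Mef2c, Smarcd3 and Hand2 were higher from middle share on. Mef2c had 64.5 and 71.7, 388 and 310.0, and 396 and 407 CPM at low, middle and high share, with 2.38 ± 0.18 at the first step (adjusted p = 8.77e-15) and 0.36 ± 0.17 at the second (adjusted p = 0.207). Smarcd3 had 25.4 and 25.0, 88.1 and 89.3, and 93.0 and 108 CPM, and its steps were 1.81 ± 0.31 (adjusted p = 2.00e-05) and 0.37 ± 0.30 (adjusted p = 0.557). Hand2 had 34.1 and 28.3, 94.6 and 84.1, and 72.3 and 78.1 CPM, with steps of 1.51 ± 0.30 (adjusted p = 2.32e-04) and -0.04 ± 0.32 (adjusted p = 0.967), and the first was lost at resolution 0.6 (0.76, adjusted p = 0.158) and with another random share of clustering genes (0.67, adjusted p = 0.559). In these 3 genes the low bin lay apart from the others, and the second step missed the threshold. Hand1 had 6.24 and 11.8, 13.1 and 47.3, and 10.3 and 33.5 CPM, and the first step was not called (1.63 ± 0.61, adjusted p = 0.0676) unless cells with high doublet scores were kept (1.95, adjusted p = 0.0261). High over low was called for Hand1 (1.44 ± 0.53, adjusted p = 0.0288), and that call was lost in 8 alternatives.

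**Figure D2:**
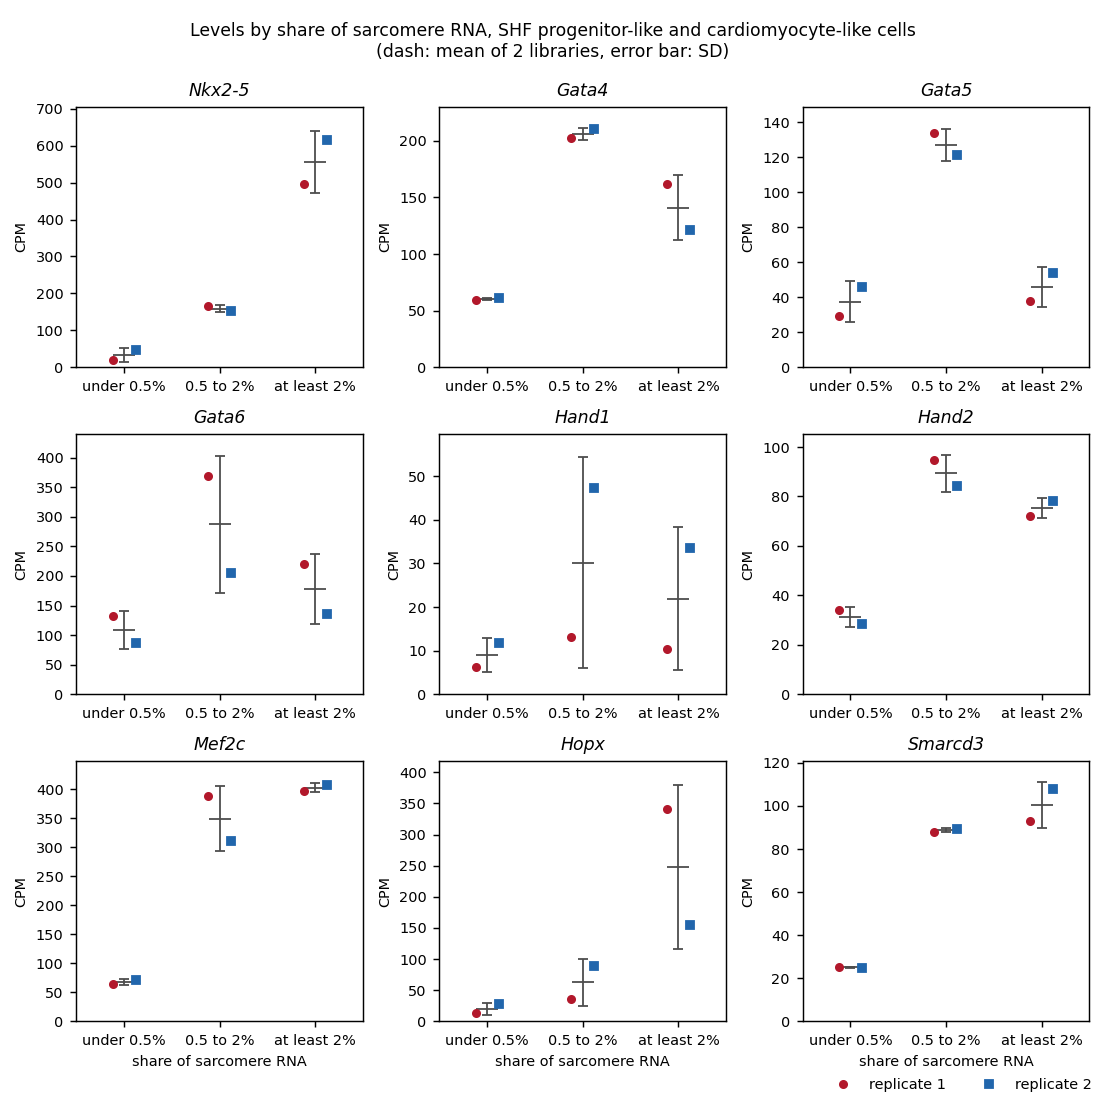
CPM of the 9 factors at low, middle and high share of sarcomere RNA in SHF progenitor-like and cardiomyocyte-like cells, with points for replicates 1 and 2, dashes for the mean and error bars for the SD of 2 libraries. Nkx2-5 was highest at high share (496 and 616 CPM) and Gata5 at middle share (134 and 121 CPM).

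**Figure D3:**
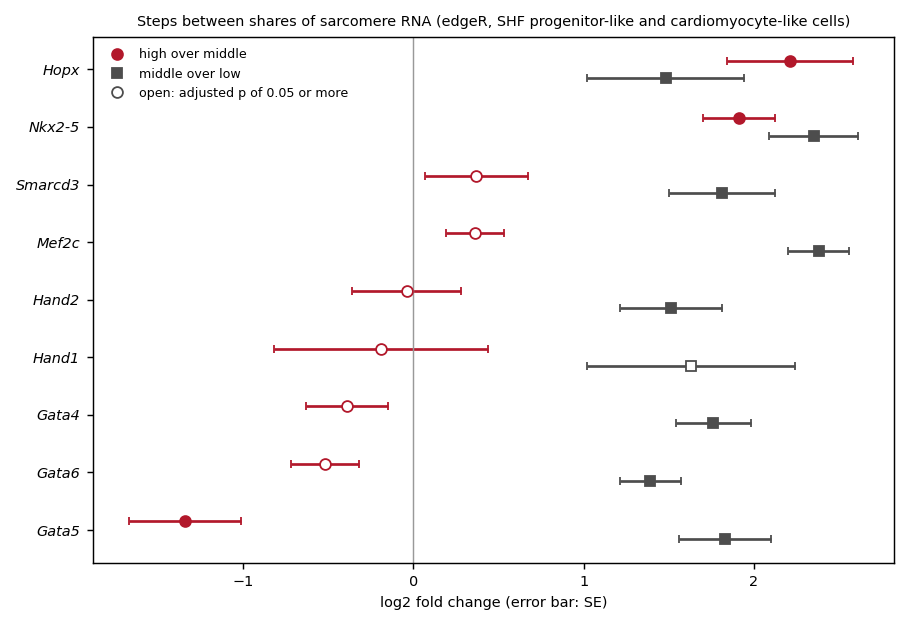
Log2 fold changes of the 9 factors with their SE for high over middle share (red circles) and middle over low share (grey squares) of sarcomere RNA, where open symbols did not pass an adjusted p of 0.05. Hopx and Nkx2-5 lay at 2.21 and 1.91 and Gata5 at -1.34 for high over middle, while the values for middle over low ran between 1.39 and 2.38.

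The first step is also a step between classes. At low share 770 of 840 and 893 of 929 cells were SHF progenitor-like, and at middle share 82 of 82 and 71 of 74 were cardiomyocyte-like. Median depth over all kept cells was 1359 and 1492 UMIs at low, 1314 and 1272 at middle and 2064 and 2133 at high share, and median doublet scores were 0.0852 and 0.0826, 0.0896 and 0.0904, and 0.0739 and 0.0826. The 6 epicardial markers summed to 58.3 and 39.2, 232 and 263, and 20.7 and 109.7 CPM. Of these, Tbx18 made up 124 and 184 CPM at middle share, Wt1 had 4 and 4 UMIs at middle share, and Msln had 0 UMIs in each bin. Wt1, Tbx18, Upk3b, Upk1b and Lrrn4 were each higher at middle than at low share in both libraries. The 8 endocardial or endothelial markers summed to 116 and 113, 91.4 and 137, and 107 and 115 CPM, with Cdh5 at 0 in both libraries at middle share. Pecam1, Tek and Egfl7 were higher at middle than at low share in both libraries, while Npr3, Emcn and Plvap were lower. Kdr was lower in replicate 1 and higher in replicate 2. The part of epicardial RNA in the levels at middle share was not tested.

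Among cardiomyocyte-like cells alone, a comparison added after these values were seen, 1 member was called at the first step and 3 at the second. Of the 8 members tested, Mef2c was called higher at middle than at low share (1.21 ± 0.28, adjusted p = 0.0104), where 0.853% of 5275 genes were higher. Gata4 was then at -0.00 ± 0.29, Gata6 at 0.01 ± 0.26, Hand2 at -0.17 ± 0.42 and Smarcd3 at 0.28 ± 0.45, with adjusted p between 0.962 and 1.000. Gata5 was not called either (0.81 ± 0.43, adjusted p = 0.743). Nkx2-5 (1.13 ± 0.39, adjusted p = 0.264) and Hopx (2.24 ± 0.82, adjusted p = 0.326) were not called at this step. High over middle was 1.90 ± 0.22 for Nkx2-5 (adjusted p = 6.89e-10), 2.21 ± 0.35 for Hopx (adjusted p = 2.01e-06) and -1.34 ± 0.35 for Gata5 (adjusted p = 0.00650), where 6.62% of genes were higher and 3.11% lower. At this step the cells were the same as before, but for 3 SHF progenitor-like cells of replicate 2. The values are therefore no separate support.

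Over all kept cells the other classes enter too, most of them at low share. At middle share 68.9% of 119 and 70.3% of 101 cells were then cardiomyocyte-like, 18 and 11 were unnamed, 3 and 14 epicardial-like, 9 and 2 endocardial or endothelial-like and 6 and 0 erythroid-like, and the 7 erythroid markers summed to 14336 and 1249.8 CPM. The part of these cells in the levels was not tested. In this setting 7 members were higher at middle than at low share (7.32% of 7431 genes) and 3 at high than at middle (5.76%), namely Nkx2-5 (2.19 ± 0.25, adjusted p = 7.37e-05), Hopx (2.32 ± 0.62, adjusted p = 0.0339) and Mef2c (0.53 ± 0.15, adjusted p = 0.0428). The call of Hopx was lost without the block (2.35, adjusted p = 0.0603), with DESeq2 (2.52, adjusted p = 0.129) and with Actc1, Tnnt2 and Myl7 left out of the share (1.07, adjusted p = 0.182). That of Mef2c was lost without the block, with DESeq2, with scaling by total UMIs alone, with at least 800 genes per cell and with thinned cells (0.45 to 0.55, adjusted p = 0.0716 to 0.401). The value of Mef2c turned to -0.01 with limits of 1% and 4% and to -0.39 when those 3 genes were left out. Hopx at this step was 1.34 without replicate 1 and 3.23 without replicate 2. Hand1 was not called in this setting (middle over low -0.02 ± 0.40, adjusted p = 0.992), where 1 unnamed cluster with Tac2 and Grhl3 among its leading genes held 21.1% and 27.2% of its low-bin UMIs.

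Most cells of middle share lay in 2 of the 4 cardiomyocyte-like clusters. These 4 clusters were led by Vsnl1 and Shox2 (cluster 24, 97 and 94 cells), by Gm12295, Shox2 and Hcn4 (cluster 25, 57 and 46), by Myl1 and Fsd2 (cluster 26, 42 and 51) and by Nppa and Myl3 (cluster 27, 29 and 57). Shox2 and the pacemaker channel Hcn4 are known from the sinus venosus, and Nppa from working myocardium of the chambers. Clusters 24 and 25, with Shox2 among their leading genes, held 91.5% and 94.4% of cardiomyocyte-like cells at middle share but 12.3% and 26.2% at high share. Median sarcomere shares were 0.478% and 0.735% in cluster 24, 0.787% and 1.38% in cluster 25, 4.47% and 6.63% in cluster 26 and 5.95% and 6.26% in cluster 27.

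Nkx2-5 stood at 348 and 659 CPM in cluster 26 and 548 and 773 CPM in cluster 27, against 139 and 216 CPM in cluster 24 and 131 and 179 CPM in cluster 25. Hopx had 275 and 317 CPM in cluster 26 and 359 and 157 CPM in cluster 27, against 19.8 and 60.4 CPM in cluster 24 and 40.3 and 73.0 CPM in cluster 25. In both genes clusters 24 and 25 were lower in every library. Their levels of Nkx2-5 were still above those of SHF progenitor-like cells (18.4 and 43.1 CPM). As background, mouse sinus venosus is known to form from progenitors without Nkx2-5, and the origin of these clusters was not tested. Gata5 was highest in cluster 25, at 111 and 120.5 CPM, against 59.4 and 60.4 CPM in cluster 24, 48.5 and 57.7 CPM in cluster 27 and 29.0 and 12.2 CPM (2 and 1 UMIs) in cluster 26. Gata4 had 158 and 224 CPM in cluster 24, 219 and 197 CPM in cluster 25, 145 and 109.8 CPM in cluster 26 and 169.7 and 89.8 CPM in cluster 27. These values are descriptions without a test.

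**Figure D4:**
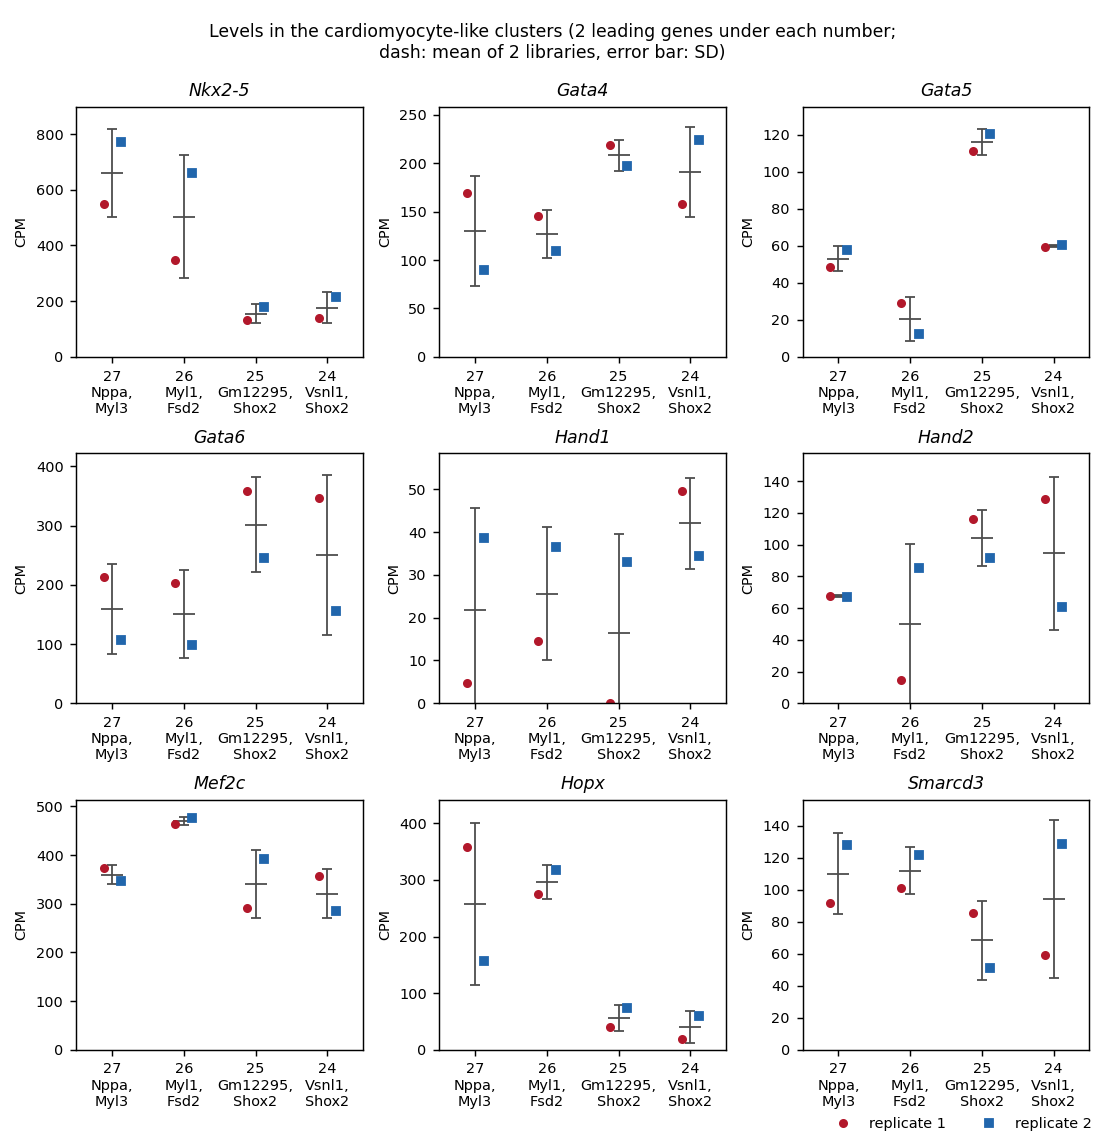
CPM of the 9 factors in the 4 cardiomyocyte-like clusters, numbered with their leading genes, with points for replicates 1 and 2, dashes for the mean and error bars for the SD of 2 libraries. Nkx2-5 and Hopx were lower in clusters 24 and 25, and Gata5 was highest in cluster 25 (111 and 120.5 CPM).

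Clusters 24 and 25 together were also divided by the share of sarcomere RNA. Their mix was not the same in each bin, as cluster 25 made up 27.1% and 22.2% of these cells at low, 46.7% and 31.3% at middle and 33.3% and 45.9% at high share. Nkx2-5 had 45.4 and 148 CPM in their cells of low share (70 and 36 cells), 167 and 129.7 CPM at middle (75 and 67) and 316 and 276 CPM at high share (9 and 37). The high bin lay above the others in both libraries. Hopx had 5.68 and 33.0 CPM at low, 37.5 and 78.9 CPM at middle and 210.4 and 72.4 CPM at high share, and Gata5 had 56.8 and 115, 133 and 124, and 35.1 and 72.4 CPM. For Gata5 the high bin of replicate 1 rested on 1 UMI. In the other cardiomyocyte-like clusters the cells of high share (64 and 104) had 515 and 749 CPM of Nkx2-5, 355 and 187 CPM of Hopx and 38.2 and 46.7 CPM of Gata5.

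SHF progenitor-like cells were not uniform in the factors. Cluster 20 (34 and 41 cells), led by Oprl1, Rspo2 and Bhlhe41, had Nkx2-5 at 117 and 164 CPM, against 13.4 and 36.8 CPM in the largest SHF progenitor-like cluster, cluster 8 (442 and 563 cells, led by Aldh1a2 and Osr1). Gata4 stood at 186 and 186 CPM in cluster 20 and at 31.7 and 51.8 CPM in cluster 8, and Gata5 at 137 and 153 CPM and at 15.0 and 39.5 CPM. Gata6 had 396 and 192 CPM in cluster 20, against 76.8 and 73.6 CPM in cluster 8, and Mef2c 151 and 126 CPM, against 21.7 and 50.4 CPM. These 5 members were thus higher in cluster 20 in both libraries, while its median share of sarcomere RNA was 0.0448% and 0.0592%, far under the limit of the low bin. Hopx was at 0 and 16.4 CPM in cluster 20 and at 1.67 and 28.6 CPM in cluster 8. Median depth was 6252 and 3255 UMIs in cluster 20 and 1132 and 1112 UMIs in cluster 8, and the part of depth in these values was not tested.

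Clusters 41 and 42 had another combination. Cluster 42 (31 and 31 cells), led by Barhl2, had Mef2c at 247 and 239 CPM and Hopx at 157 and 114 CPM, with Nkx2-5 at 10.5 and 5.20 CPM and Gata4 at 0 and 5.20 CPM. In cluster 41 (31 and 34 cells), led by Pla2g7, Mef2c had 175 and 261 CPM and Hopx 29.2 and 161 CPM, where Hopx rested on 1 and 8 UMIs. Mef2c and Hopx were higher there than in cluster 8 in both libraries, without the levels of Nkx2-5 and Gata4 seen in cluster 20. The levels per cluster are descriptions, and no test between clusters was made.

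**Figure D5:**
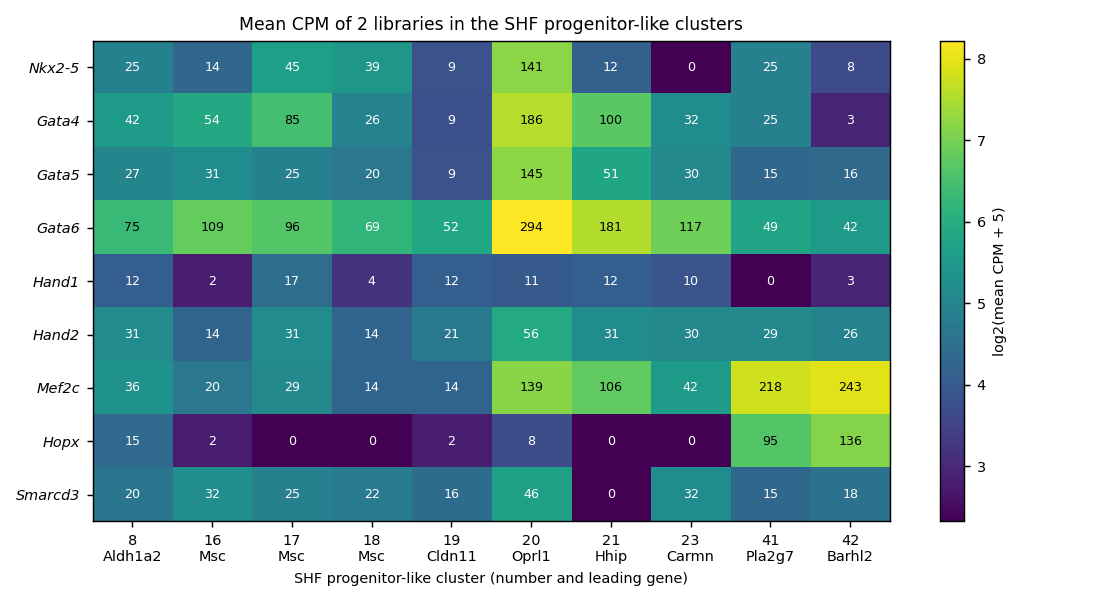
Mean CPM of 2 libraries (numbers in the cells, colour on a log2 scale of CPM + 5) of the 9 factors in the 10 SHF progenitor-like clusters, each with its leading gene. Nkx2-5, Gata4, Gata5 and Gata6 were highest in cluster 20, and Mef2c and Hopx in clusters 41 and 42.

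The next comparison asked whether the members differ between cells with and without a UMI of the ventricular myosin light chain Myl2 among cells of high sarcomere share. In cluster 27, with Myl2 among its leading genes, 6 of 29 and 12 of 57 cells had a Myl2 UMI. Median depth at high share was 2064 and 2133 UMIs. A Myl2-negative cell is therefore not shown to lack the RNA, and calls may be missed for this reason. Of the 9 members, 0 were called by edgeR or by DESeq2 between Myl2-positive cells (8 in replicate 1 and 21 in replicate 2) and Myl2-negative cells (66 and 125), and 3 had an unadjusted p under 0.05 with edgeR. In this fit 0.365% of 6852 genes were called after adjustment in either direction, 0.234% higher and 0.131% lower. How many of all genes had an unadjusted p under 0.05 was not counted, so 3 of 9 members is not read as an excess. Hand1, which in mouse marks the left ventricle, had 40.0 and 87.4 CPM in Myl2-positive cells (1 and 8 UMIs), against 7.49 and 24.2 CPM in Myl2-negative cells (1.95 ± 0.75, edgeR adjusted p = 0.416). Gata6 had 80.0 and 87.4 CPM in Myl2-positive cells and 232 and 145 CPM in Myl2-negative cells (-0.97 ± 0.46, edgeR adjusted p = 0.543). Mef2c had 119.9 and 328 CPM in Myl2-positive cells and 419 and 418 CPM in Myl2-negative cells (-0.61 ± 0.30, edgeR adjusted p = 0.555). These 3 are the members with an unadjusted p under 0.05 with edgeR, and none passed the adjusted threshold. In Myl2-positive cells of replicate 1, where 1 UMI stood for 40.0 CPM, the levels of all 3 rested on few UMIs. Without replicate 1 and without replicate 2 the log2 fold change was -0.68 and -1.83 for Gata6 and -0.30 and -2.09 for Mef2c. Nkx2-5 stood at 559.7 and 633 CPM in Myl2-positive cells and 491 and 606 CPM in Myl2-negative cells (0.02 ± 0.26, adjusted p = 0.993).

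Lists of related genes, chosen with earlier results of these data known, were counted in the same fits. Between cardiomyocyte-like and SHF progenitor-like cells, 14.8% of all 5510 genes tested were higher and 12.5% lower. Of 19 other cardiac transcription factors and cofactors, 15 were tested between cardiomyocyte-like and SHF progenitor-like cells, and 7 were higher and 4 lower, with a median log2 fold change of 0.68 (-0.03 over all genes tested). Smyd1, a muscle histone methyltransferase, had 162 and 311 CPM in cardiomyocyte-like cells and 2.25 and 12.1 CPM in progenitors (5.19 ± 0.31, adjusted p = 2.23e-19). Myocd, the coactivator of Srf, had 91.9 and 112 CPM, against 4.49 and 6.78 CPM in progenitors (4.24 ± 0.42, adjusted p = 1.47e-11), and the T-box factor Tbx20 had 129 and 119 CPM, against 7.18 and 10.7 CPM (3.88 ± 0.31, adjusted p = 4.36e-15). Hey1, a Notch target, was also higher (2.30 ± 0.36, adjusted p = 1.25e-06). The 4 lower genes were all Iroquois factors. Irx3 had 10.4 and 6.38 CPM in cardiomyocyte-like cells and 53.0 and 60.6 CPM in progenitors (-2.65 ± 0.42, adjusted p = 1.46e-06), and Irx5 had 2.59 and 6.38 CPM, against 13.9 and 18.9 CPM (-1.73 ± 0.58, adjusted p = 0.0209). Irx1 (0 and 1 UMIs in cardiomyocyte-like cells, 12 and 22 in progenitors) and Irx2 (1 and 1 UMIs, against 15 and 17) were called lower on few counts.

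Known targets of the factors were higher in 11 of the 11 tested of 12 (14.8% of all genes tested were higher), with a median log2 fold change of 6.25. Csrp3, a muscle LIM protein, had 767 and 1221 CPM in cardiomyocyte-like cells and 2.69 and 13.1 CPM in progenitors (7.10 ± 0.20, adjusted p = 5.54e-33), and Ankrd1, a nuclear and sarcomere protein, had 1117 and 1701 CPM, against 6.74 and 4.85 CPM (7.95 ± 0.26, adjusted p = 2.79e-31). Nppa, the atrial natriuretic peptide, had 308 and 454 CPM in cardiomyocyte-like cells, against 0 and 2 UMIs in progenitors. Atp2a2, the calcium pump of the sarcoplasmic reticulum, was 4.81-fold higher (2.27 ± 0.13, adjusted p = 1.45e-20). Among the paralogs, 2 of 5 tested were higher, Mef2a (1.35 ± 0.20, adjusted p = 2.51e-07) and Mef2d (1.53 ± 0.50, adjusted p = 0.0164), with a median of 1.35. Of 10 chamber genes 7 were tested and 5 were higher, with a median of 3.80. They included Angpt1 (572 and 466 CPM, against 35.9 and 21.3 CPM in progenitors), Lbh (2.80 ± 0.20, adjusted p = 2.19e-17), Stard10 (3.80 ± 0.34, adjusted p = 1.70e-13) and Myl1, which had 0 UMIs in progenitors and was at least 105-fold higher.

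Smarcd3 belongs to a family of BAF subunits of which each complex is thought to hold 1, and neither of its relatives was higher. Smarcd1 had 86.7 and 65.1 CPM in cardiomyocyte-like cells and 188 and 148 CPM in SHF progenitor-like cells, a log2 fold change of -1.06 ± 0.15 (adjusted p = 1.80e-07), and Smarcd2 had 11.6 and 11.5 CPM, against 17.5 and 26.7 CPM (-0.81 ± 0.39, adjusted p = 0.117). Of 24 other BAF subunits 23 were tested. Dpf3, a reader of histone marks known from heart and muscle, was the 1 higher, at 40.1 and 47.2 CPM in cardiomyocyte-like cells and 7.63 and 8.24 CPM in progenitors (2.53 ± 0.41, adjusted p = 2.19e-06). Lower were 8, Smarcd1 together with Smarcc1 (-0.69 ± 0.12, adjusted p = 4.04e-06), Smarca4, the ATPase (-0.56 ± 0.12, adjusted p = 1.24e-04), Actl6a (-0.57 ± 0.12, adjusted p = 3.12e-04) and 4 others, and the median over the 23 was -0.42. In this fit 12.5% of all genes were lower in cardiomyocyte-like cells.

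Along the sarcomere share, Dpf3 was higher at middle than at low share (2.57 ± 0.49, adjusted p = 1.32e-04) and Smarcd1 lower (-0.71 ± 0.24, adjusted p = 0.0363), the step at which Smarcd3 had 1.81. At high over middle share Smarca4 (-0.87 ± 0.19, adjusted p = 9.40e-04) and Bcl7a (-1.16 ± 0.36, adjusted p = 0.0298) were lower. In the Myl2 comparison 1 known target was higher in Myl2-positive cells, Pln (3.01 ± 0.68, adjusted p = 0.0220), and Nppa was lower (-2.97 ± 0.36, adjusted p = 4.25e-07). Among chamber genes Lbh was higher (1.61 ± 0.29, adjusted p = 9.69e-04) and Angpt1 lower (-2.62 ± 0.36, adjusted p = 5.91e-06) in Myl2-positive cells.

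Likeness of pattern was described by Pearson's r of log2(CPM + 5) over the 28 sums of class and library, among 4779 genes outside the clustering. The sums share libraries and depth, so no p is given. The closest genes to Gata4 were Gata6 (0.859) and Gata5 (0.844). Gata6 was also close to Pde3a (0.884) and to its antisense neighbour 1010001N08Rik (0.860), which led the list for Gata5 (0.870), ahead of Cobl (0.856). Gata4 was also close to Ugp2 (0.843). Nkx2-5 was closest to Rbm24 (0.811), Cox6a2 (0.810) and Synpo2 (0.804), Mef2c to Tnnt1 (0.859), Lama4 (0.829) and Adgra2 (0.827), and Smarcd3 to Gyg (0.866), Cobl (0.830) and Trabd2b (0.818). Hand1 was closest to Mab21l2 (0.786), Rarres2 (0.771) and Nfatc4 (0.758), and Hand2 to AV026068 (0.800), Prkce (0.740) and Tmem108 (0.738). Hopx had the weakest matches, Oaf (0.704), Idh3a (0.697) and Timm17a (0.688).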

How the data were processed

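Raw UMI counts per gene and cell were deposited by the authors as 1 matrix for each library. Per the submitters' processing notes, mm10 and Scanpy were used, without versions, while no source used here names the aligner, the counter or the strand setting. Barcodes were kept from 400 genes upwards and up to a mitochondrial share of 10% (4038 and 4934 of 5000 and 7497 barcodes). Because the automatic doublet threshold marked 0 and 1 cells, cells scoring above the limit of the top 5% of doublet scores were removed instead, and ties with the limit stayed (174 and 191 cells removed). The members and all gene lists were chosen with earlier results of these data known.

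Clustering used Scanpy 1.11.5 with leidenalg 0.10.2 (2000 variable genes, 30 principal components, 20 neighbours, resolution 1) on 26075 genes, leaving the members, the lists and other genes, 26475 in all, for the tests. A second round of clustering was added after seeing the data, since the first put epicardial and cardiomyocyte cells together. A cluster of at least 20 cells was named where at least 3 markers were raised 2-fold and seen in 5% of its cells, and no other class had more markers among its leading genes.

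UMIs were summed per library and group of cells and tested with edgeR 4.0.16 in R 4.3.3 (quasi-likelihood test, two-sided, TMM scaling, filterByExpr, Benjamini-Hochberg over all genes tested in a fit) with the library as a block, and DESeq2 1.42.0 as an alternative. The SE is the size of the log2 fold change divided by the square root of F. The fits had 28 sums for classes, 6 for sarcomere bins and 8 for the Myl2 comparison, with 13, 2 and 3 residual degrees of freedom. The block is the pool of embryos and the day, which all groups of a library share, and deviations of groups of the same library correlated by 0.176 to 0.756 over 2825 genes. A shift shared by all groups of a pool is taken out by the block. The p-values then rest on how far differences between groups vary between the 2 pools, not on how far the pools themselves differ. The quasi-likelihood fit also moderates the spread of each gene by that of all genes tested. With so few residual degrees of freedom, a p-value does not measure the spread of that gene between the pools alone. A small p can therefore stand beside values that differ widely when 1 library is left out. The planned contrast of each class with the mean of the other classes was void, because classes with 0 UMIs set that mean, and each class was compared with SHF progenitor-like cells instead.

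Detection shares were computed with each cell thinned to 1000 UMIs, leaving out shallower cells (62 and 58 cardiomyocyte-like, 195 and 258 SHF progenitor-like). Floors of 3 counts and exact 95% binomial intervals cover counting error only. Barcodes of 10 to 200 UMIs (117 and 333), taken as free RNA, held 1607 and 1549.7 CPM of the sarcomere genes. Of the members they held only 1 UMI of Hand2 in replicate 1 (115 CPM). In replicate 2 they held 6 UMIs of Mef2c (108 CPM), 3 each of Gata5 and Gata6 (54.1 CPM each) and 1 or 2 of every other member. SHF progenitor-like cells of replicate 2 had 69.3 CPM of Mef2c, 43.6 of Gata5 and 82.4 of Gata6. The part of free RNA in the levels was not tested. All 9 members were described. Of each list, the 4 genes with the smallest adjusted p were named, together with small sets of lower genes chosen after their values were seen, and for each member the 3 genes with the highest correlation. The scripts were tested on simulated counts with known fold changes. Alternatives covered cell filters, doublets, clustering, scaling, tool, count filter, depth, block, bin limits and leaving out a library.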

Additional observations from a re-analysis of the deposited data

How the results depend on the processing

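Of 1076 member values under alternatives other than leaving out a library, 940 kept their direction and side of the threshold, 93 lost and 11 gained a call, and 32 changed sign. Those that changed sign were mostly values not called to begin with. Others had been called, among them rises of Gata4, Hand2 and Gata6 along the sarcomere share within the heart classes.

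Against SHF progenitor-like cells they were Hopx in endocardial or endothelial-like cells (-0.48 with at least 800 genes per cell) and in erythroid-like cells (-0.33 with library size only), Gata4 in mesenchyme-like cells (0.00 at resolution 0.6) and Nkx2-5 in foregut endoderm-like cells (-1.01 with 800 genes, -0.35 at resolution 0.6, -0.14 with thinned cells). Over all kept cells they were Hand1 for middle over low (0.05 with library size only, 0.07 with limits of 1% and 4%, 0.12 with Actc1, Tnnt2 and Myl7 left out), for high over middle (-0.20 with these 3 left out) and for high over low (-0.21 with 800 genes, -0.08 with these 3 left out), Smarcd3 for high over middle (-0.02 with these 3 left out) and Mef2c there (-0.01 with limits of 1% and 4%, -0.39 with these 3 left out). Within the heart classes they were, for high over middle, Hand1 (0.01 without the block, 0.03 at resolution 0.6, 0.46 at resolution 1.6, 0.12 with one round of clustering, 0.36 with limits of 1% and 4%), Gata4 (0.02 with 800 genes), Hand2 (0.13 with another random share of clustering genes) and Mef2c (-0.05 with limits of 1% and 4%), and for high over low Gata5 (-0.21 at resolution 0.6). Among cardiomyocyte-like cells alone they were Gata4 (-0.00 for middle over low, -0.41 for high over low), Hand2 (-0.17 and -0.22), Gata5 (-0.53 for high over low) and Gata6 (-0.50). With SHF progenitor-like cells included, these values of Gata4 (1.76 and 1.37), Hand2 (1.51 and 1.47) and Gata6 (0.87) had been called higher. None of them was called among cardiomyocyte-like cells alone. In the Myl2 comparison they were Nkx2-5 (-0.23 with no filter on low counts, -0.18 with thinned cells). The causes were not tested, except that leaving out cells or a library leaves fewer UMIs.

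Of 88 values, 11 changed sign without replicate 1 or replicate 2, and 2 of these had been called. The called ones were Hopx in endocardial or endothelial-like cells (-0.08 to 1.33) and Hand1 in paraxial mesoderm-like cells (-5.17 to 2.48, where replicate 1 had 0 UMIs and the low value depends on the prior count). The others ranged, over all kept cells, from -0.10 to 0.03 for Hand1 (middle over low), -0.22 to 0.22 (high over middle) and -0.32 to 0.25 (high over low), and from -0.49 to 0.07 for Hand2 (high over middle). Within the heart classes Hand2 ranged from -0.21 to 0.08 for high over middle. In the Myl2 comparison the ranges were -0.10 to 0.12 for Nkx2-5, -0.19 to 0.43 for Gata5, -0.12 to 1.04 for Hand2 and -1.57 to 0.94 for Smarcd3. Fits without replicate 1 or replicate 2 have no residual degrees of freedom and gave values with no test.

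Without the library block (no replicate block), the genes called between cardiomyocyte-like and SHF progenitor-like cells were 554 in place of 1505, and the pairs of a member and another class called were 5 higher in place of 12 and 34 lower in place of 60. Over all kept cells the genes called were 330 (middle over low, 900 with the block), 242 (high over middle, 648) and 1305 (high over low, 2583), and 1 member was higher for high over middle, where Mef2c (0.52, adjusted p = 0.332) and Hopx (2.35, adjusted p = 0.0603) were lost. Within the 2 heart classes they were 335 (980), 230 (658) and 1394 (2714), with 0 members lower for high over middle, and Gata6 (0.85, adjusted p = 0.0918) and Hand1 (adjusted p = 0.0942) were lost for high over low. In the Myl2 comparison 5 genes were called in place of 25.

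With DESeq2, 5 pairs were higher. Over all kept cells 545 genes were called for middle over low and 1588 for high over low, and 1 member was higher for high over middle. Within the heart classes 352, 276 and 1167 genes were called, with 0 members lower for high over middle, and 10 genes in the Myl2 comparison.

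With cells thinned to 1000 UMIs, 5 members were higher in cardiomyocyte-like cells, 531 genes were called, and 4 pairs were higher and 20 lower. Over all kept cells 290, 189 and 822 genes were called for middle over low, high over middle and high over low. Within the heart classes 5 members were higher for middle over low, 0 lower for high over middle, and 280, 191 and 844 genes were called, with 2 in the Myl2 comparison. Gata5 then had 68.0 CPM and Mef2c 389 CPM in cardiomyocyte-like cells, against 77.7 and 352 CPM, and Gata5 had 73.0 CPM with doublets kept.

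One round of clustering gave 5 higher pairs. Resolution 0.6 gave 549 genes for middle over low and 5 members for high over low in the heart classes. At least 800 genes per cell gave 577 genes for middle over low, 373 for high over middle and 0 members lower there, and another random share of clustering genes gave 332, 331 and 0. Over all kept cells, 1 member was lower for high over middle with RLE size factors and with library size only, which gave 2 within the heart classes. Limits of 1% and 4% gave 1400 genes for middle over low and 2 members lower for high over middle, over all kept cells, and 2 lower within the heart classes. With Actc1, Tnnt2 and Myl7 left out, 1713, 145 and 1660 genes were called for middle over low, high over middle and high over low, with 1 member higher and 1 lower for high over middle and 5 higher for high over low. Cardiomyocyte-like cells alone gave 52 genes and 1 member for middle over low, and 555 genes and 3 members for high over low.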

Other observations

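Some clusters without a name also carried the factors, and their values are given without a test. Cluster 7 (51 and 46 cells), led by Lhx2, had Gata4 at 280.1 and 209.9 CPM, Gata6 at 373 and 224 CPM, Hand2 at 183 and 109 CPM and Hand1 at 58.5 and 114 CPM, with Nkx2-5 at 9.74 and 4.56 CPM. Cluster 22 (16 and 27 cells), led by Mtus2, Rgs5 and Tlx1, had Nkx2-5 at 135 and 160.5 CPM and Hand2 at 156 and 199 CPM, with Gata4 at 20.8 and 7.64 CPM from 2 and 1 UMIs. In cluster 33 (24 and 48 cells), with Tac2 and Grhl3 among its leading genes, Hand1 reached 552 and 765 CPM, while Nkx2-5, Hopx and Smarcd3 had 0 UMIs in both libraries. Without this cluster the low bin over all kept cells had 10.7 and 23.0 CPM of Hand1.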
